A study of Drosophila melanogaster and Drosophila virilis and Drosophila yakuba with 44 samples.

Results

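The Cpr genes of D. melanogaster were taken as all genes of the counting tables whose name begins with Cpr followed by a digit, which gave 69 of 13458 genes. Their proteins carry the Rebers and Riddiford (R&R) domain, a stretch of amino acids that binds chitin. The insect cuticle is built from chitin fibers held in a matrix of such proteins, and epidermal cells, the trachea, and the foregut and hindgut secrete a new one for each stage. Each life stage and body region is known to use its own mixture, so that stiff plates, soft joints, and transparent lenses differ in composition. The names record the cytological band of each gene, and for most members no role beyond that of the domain is stated here.

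Expression was followed in 23 3′-seq libraries and 3 total RNA-seq libraries of tissues, embryos, and cell lines. 3′-seq captures the polyadenylated end of each transcript, so that a transcript contributes reads irrespective of its length and levels of different genes can be compared. The embryos were collected in 6 windows after egg laying. The first covered 0-45 min, the second 45-90 min, and the third 90 min-6 h, and the last of them covered 6-12 h, then 12-18 h, then 18-24 h. The adult samples were heads, ovaries, and testes, the carcasses that remained of females and males after removal of head and gonads, and whole females and males. The flies were 2-5 days old, and those that gave heads and those taken whole had mated. Heads, which were female, ovaries, and testes came from the Canton S strain. The 10 cell lines were gm2, mbn2, cmel1, BG3, mldmd16_c3, Dmd4, Dmd32, Dmd20, OSS, and S2R+, and RNA-seq was made from the same RNA of head, ovary, and testis. No larvae or pupae were sampled, so that the use of a gene in those stages cannot be seen here. The labels name no mutation and no drug treatment for any of these samples. Each condition had 1 library, so that no difference given here has a replicate check and no p-value is given.

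Levels are given as RPM, the reads of a gene per 1000000 counted reads, after scaling by trimmed mean of M-values (TMM). Intervals are exact 95% intervals that cover counting error only. A gene was called higher or lower between a pair of libraries at a 4-fold ratio after 1 RPM was added to both, among genes with at least 10 RPM in 1 of them. A gene that reaches this minimum only in the library where it is high tends to be called, and one direction is then fixed by the minimum, so counts of calls are given as a description, with the number of genes that entered through each library. Where no read was counted, up to 3 are still possible, which correspond to 0.264 to 1.48 RPM in the adult libraries, and a fold against a count of 0 is given as a lower bound from 3 reads in that library. These samples are bulk RNA, in which fewer cells of a type and less RNA per cell cannot be told apart.

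Certain libraries stood apart. The 45-90 min embryos had only 42379 counted reads, and a count of 0 there allows up to 35.8 RPM. The female carcass library had 316 genes with 1 to 5 reads, the fewest of all 23. Female whole flies had 579, inside the range of the 21 others, which was 436 to 3677 with a median of 804. The male whole-fly library held the oocyte gene osk at 334 RPM, where female whole flies had 1133 RPM and male carcass only 1.63, and it also held the testis gene Mst87F at 149.7 RPM. Results from the library labelled male whole flies are therefore given beside those of male carcass. The photoreceptor genes summed to 36998 RPM in head and had no read in female carcass.

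Reads on Cpr genes were concentrated in late embryogenesis. They made up 1.29% of counted reads at 12-18 h, that is 32567 of 2520559 reads (1.28 to 1.31%), and 1.15% at 18-24 h (1.14 to 1.16%). At 6-12 h the share was 0.0134% (0.0123 to 0.0147%), and at 90 min-6 h it was 0.000701%, from 17 reads. Among adult samples the share was 0.326% in head, 0.199% in male carcass, 0.126% in female carcass, 0.0971% in male whole flies, and 0.0323% in female whole flies, and these intervals do not overlap. Ovary stood at 0.00246%, testis at 0.0147%, and the 10 cell lines at 0.0017 to 0.0172%. The late embryo was thus the stage, and the head the adult sample, in which these genes took the greatest share among the libraries compared.

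**Figure D1:**
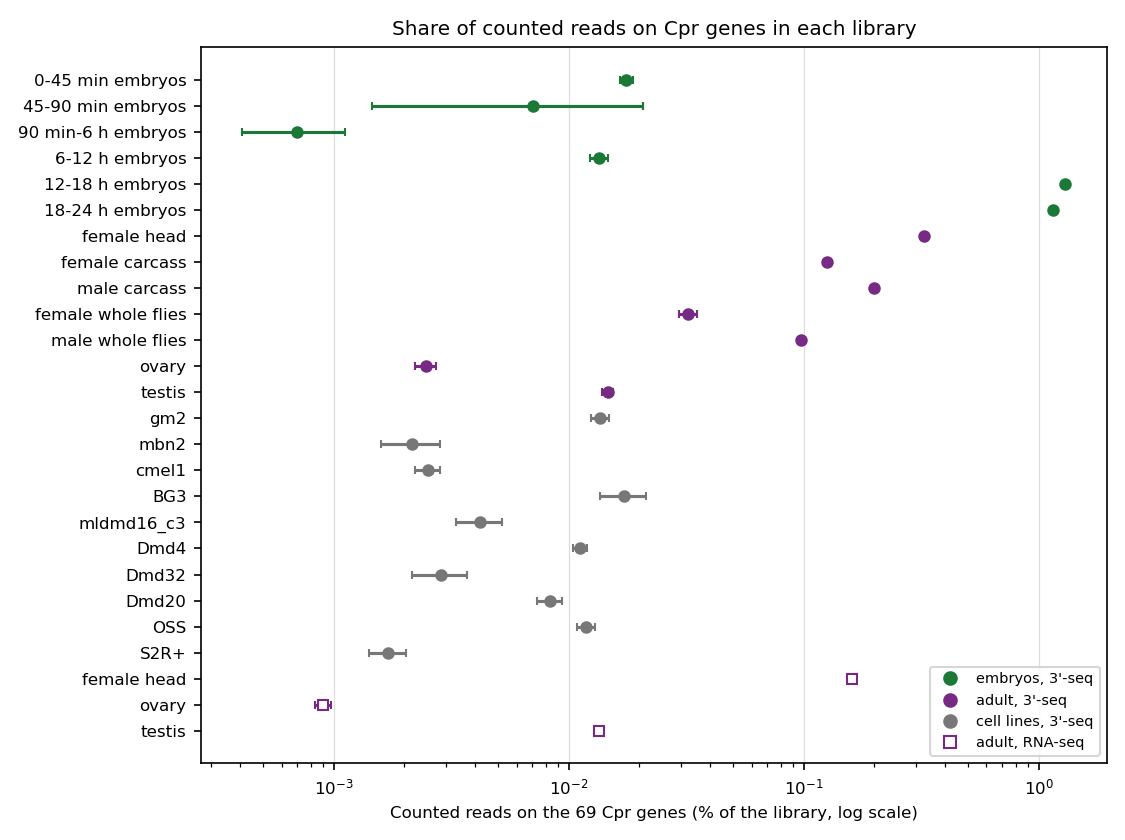
Percent of counted reads on the 69 Cpr genes (x axis, log scale) in each library (y axis). Points are single libraries and bars are exact 95% intervals for counting error. The 12-18 h and 18-24 h embryos lie at 1.29% and 1.15%, followed by head at 0.326%, while ovary, testis, and the cell lines lie at 0.0172% or less.

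Of the 69 genes, 65 had at least 1 read in a 3′-seq library and 52 reached 10 RPM in 1 or more of them, which is 75.4% of the family against 85.3% of all genes. At the upper end 29 genes reached 100 RPM and 6 reached 1000 RPM, namely Cpr47Eg, Cpr65Ax1, Cpr51A, Cpr65Au, Cpr78Cc, and Cpr100A. The 13 genes with reads that stayed below 10 RPM were Cpr5C, Cpr12A, Cpr30B, Cpr30F, Cpr47Ed, Cpr49Ah, Cpr64Ac, Cpr65Aw, Cpr72Eb, Cpr76Bc, Cpr78Ca, Cpr78E, and Cpr92A. The highest of them was Cpr12A with 9.44 RPM, from 45 reads, at 18-24 h. No read was counted in any 3′-seq library for Cpr57A, Cpr64Ad, Cpr65Ax2, and Cpr72Ea. Cpr72Ea had 28 reads in the RNA-seq library of head, and the other 3 had none in either assay. Cpr57A and Cpr64Ad overlap another gene on the same strand, which were Obp57d and CG43367, respectively.

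Of the 52 genes, 19 were highest at 12-18 h, 13 at 18-24 h, 12 in head, 3 in male carcass, 2 in female carcass, and 1 each in BG3, Dmd20, and OSS cells. At a minimum of 10 RPM, 22 members were seen in late embryos but not in head or either carcass, which is 31.9% of the family against 5.77% of all genes. A further 11 were seen in those adult samples but not in late embryos (15.9% against 10.3%), 16 in both (23.2% against 49.0%), and 20 in neither (29.0% against 35.0%). Use in both stages was thus less frequent, and use in the late embryo alone more frequent, than among all genes, as a description of these libraries.

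**Figure D2:**
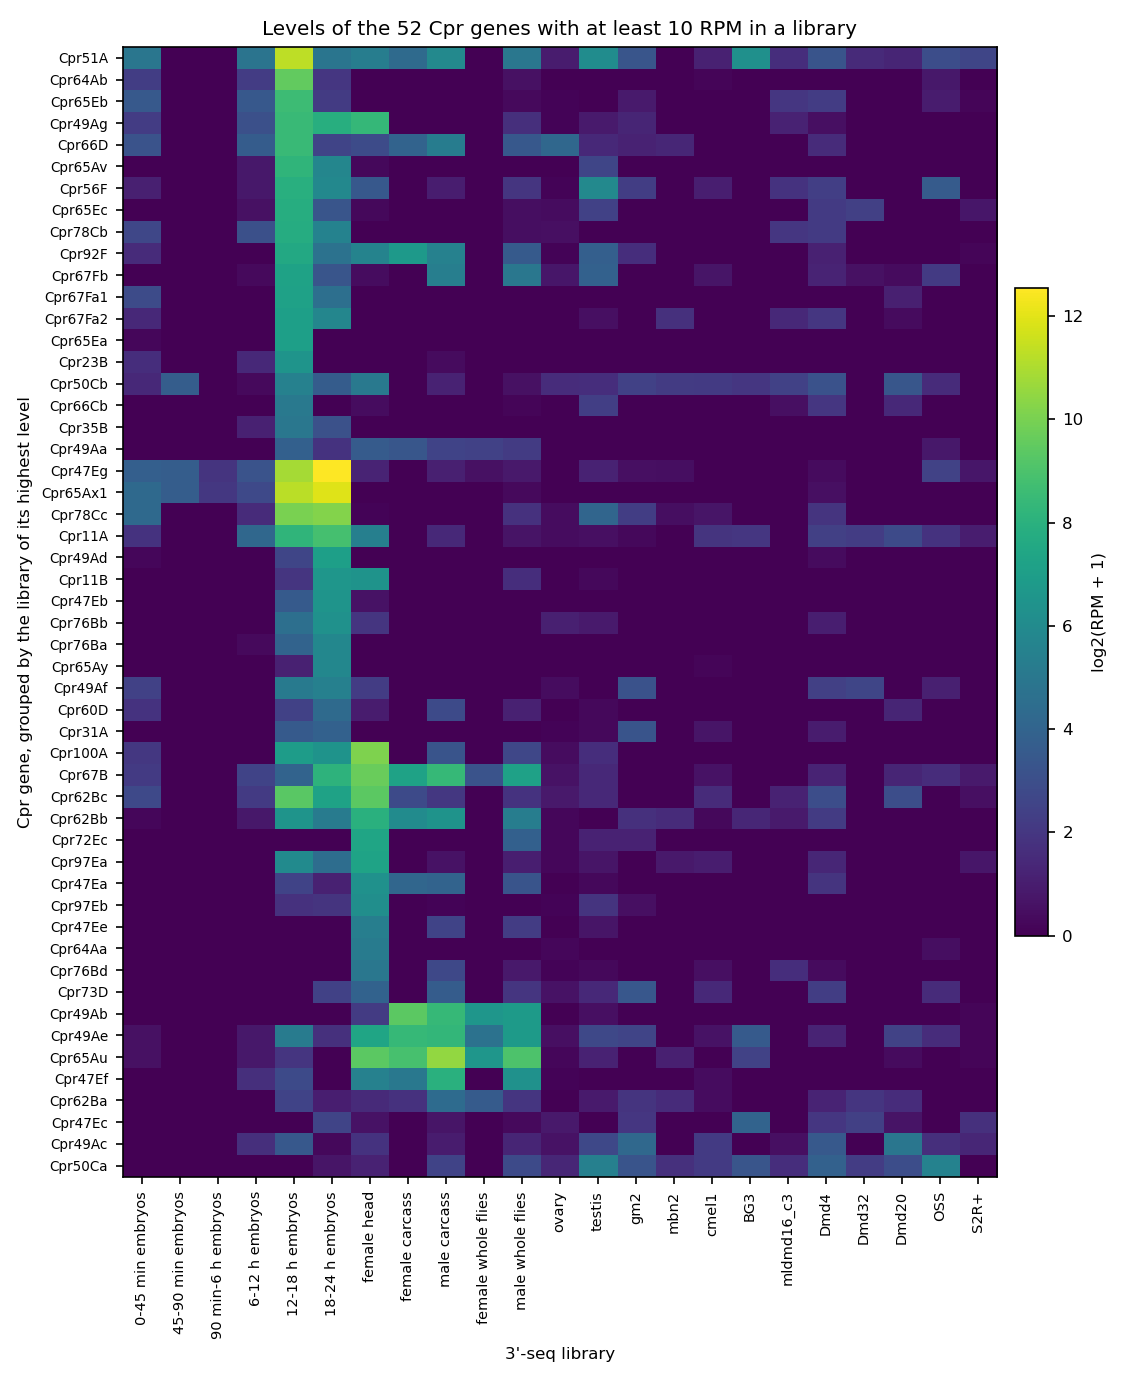
Levels of the 52 Cpr genes (rows) that reached 10 RPM, as log2(RPM + 1), in the 23 3′-seq libraries (columns), with genes grouped by the library of their highest level. The genes fall into blocks of 19 at 12-18 h, 13 at 18-24 h, and 12 in head, and most of the other entries are dark.

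The first question was when in embryogenesis the family is expressed. Between 6-12 h and 12-18 h the summed level went from 123 to 13011 RPM, that is 106 times as much. At 10 RPM or more there were 3 members at 6-12 h and 34 at 12-18 h, where 44.9% and 47.3% of all genes reached that level. These 34 held the 3, so that all members that could be called had entered through the later window and 31 of them through it alone. Of the 34, 33 were higher at 12-18 h, where 17.2% of all genes were called higher and 7.87% lower, and the minimum left little room for a lower call. Cpr67B was the only one of the 34 not called, with 38 reads at 12-18 h and 20 at 6-12 h.

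With 1 RPM added to both levels, which favors abundant genes, the largest ratios in this step were those of Cpr65Ax1, Cpr78Cc, Cpr47Eg, Cpr92F, and Cpr65Av. Cpr65Ax1 had 24 reads at 6-12 h and 6096 at 12-18 h, that is 5.80 and 2435 RPM, a ratio of 420.0 (282 to 656). Cpr78Cc had 8 and 2627 reads, a ratio of 543 (275 to 1259). Cpr47Eg went from 34 to 4605 reads and from 8.21 to 1839.7 RPM, a ratio of 224 (160 to 324). These 3 genes stayed high at 18-24 h. Cpr92F had no read at 6-12 h and 473 at 12-18 h, which makes it at least 261-fold higher. Cpr65Av had 3 reads at 6-12 h and 744 at 12-18 h, with a ratio of 410.1 (139.8 to 1993). Without the added RPM the largest ratio was that of Cpr67Fb, at 615 (109.7 to 24362), which rests on a single read at 6-12 h against 372 at 12-18 h.

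The 12-18 h window had the greater number of Cpr genes in use, with 34 at 10 RPM or more, against 27 at 18-24 h. Of all genes, 47.3% and 49.3% reached that level in these windows. Its leading genes were Cpr51A with 2489.7 RPM, Cpr65Ax1 with 2435 RPM, Cpr47Eg with 1839.7 RPM, Cpr78Cc with 1049.5 RPM, and Cpr64Ab with 734 RPM. At 18-24 h the leading genes were Cpr47Eg with 5966 RPM, Cpr65Ax1 with 3962 RPM, Cpr78Cc with 1195 RPM, Cpr11A with 455 RPM, and Cpr67B with 272 RPM. The summed level was nearly the same, at 13011 and 13340 RPM. At 12-18 h the leading gene took 19.1% of the Cpr reads, and at 18-24 h Cpr47Eg by itself took 44.7%, so that the later total rested on fewer genes.

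Beneath the similar totals, part of the genes were shared and the levels of many shifted. Of 38 Cpr genes at 10 RPM or more in a late window, 23 were so in both, 11 at 12-18 h alone, and 4 at 18-24 h alone. Over all genes, 7364 were at that level in a late window, 5641 in both, 725 at 12-18 h alone, and 998 at 18-24 h alone. The part in both windows was thus smaller among the members than among all genes. Among the 38 members, 17 were lower and 5 higher at 18-24 h, against 6.22% of all genes lower and 8.39% higher, and 16 were called neither way. The median log2 ratio of the 38 was -1.68, and that of all genes was 0.14.

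The genes with the largest ratios in that direction, with 1 RPM added, were nearly confined to the 12-18 h window among embryo libraries. Cpr64Ab had 15 reads at 6-12 h, 1837 at 12-18 h, and 14 at 18-24 h, and its level was 249.96 times lower in the last window than in the one before (148.6 to 458). Cpr51A had 115, 6232, and 136 reads in the same windows, with an 87.3-fold lower level at 18-24 h (73.6 to 104). Cpr65Ea had 0, 334, and 0 reads, which makes it at least 212-fold lower at 18-24 h. These 3 genes were thus high in a single window. Cpr65Eb was 109.6-fold lower at 18-24 h (68.1 to 189), and Cpr23B, with 223 reads at 12-18 h and 0 at 18-24 h, at least 142-fold lower. Cpr66D, known as a protein of the corneal lens in the adult eye, had 901 reads at 12-18 h and 24 at 18-24 h, that is 359.95 and 5.03 RPM. Cpr66Cb, with 83 reads at 12-18 h and none at 18-24 h, was at least 52.7-fold lower, and the other 10 genes lower at 18-24 h ranged from 4.12-fold for Cpr56F (3.56 to 4.77) to 25.1-fold for Cpr65Ec (18.4 to 35.0).

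The 5 genes that were higher at 18-24 h were Cpr11B, Cpr65Ay, Cpr49Ad, Cpr67B, and Cpr47Eb. Cpr11B had 7 reads at 12-18 h and 452 at 18-24 h, a ratio of 33.9 (16.3 to 84.8). Cpr65Ay went from 3 to 259 reads, a ratio of 45.3 (15.3 to 221). Both genes were all but unseen in the window before. Cpr49Ad went from 13 to 638 reads, a ratio of 25.8 (15.0 to 48.7), and Cpr67B from 38 to 1297 reads, a ratio of 17.9 (13.0 to 25.4). Cpr47Eb had 27 and 421 reads, a ratio of 8.19 (5.55 to 12.6). The most abundant late gene, Cpr47Eg, was 3.24 times higher at 18-24 h (3.14 to 3.35) and did not reach the 4-fold limit, as also Cpr65Ax1 at 1.63 (1.58 to 1.67) and Cpr78Cc at 1.14 (1.09 to 1.19). The neighbors Cpr76Ba and Cpr76Bb came close to it, with ratios of 3.61 (2.56 to 5.21) and 3.48 (2.63 to 4.66).

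**Figure D3:**
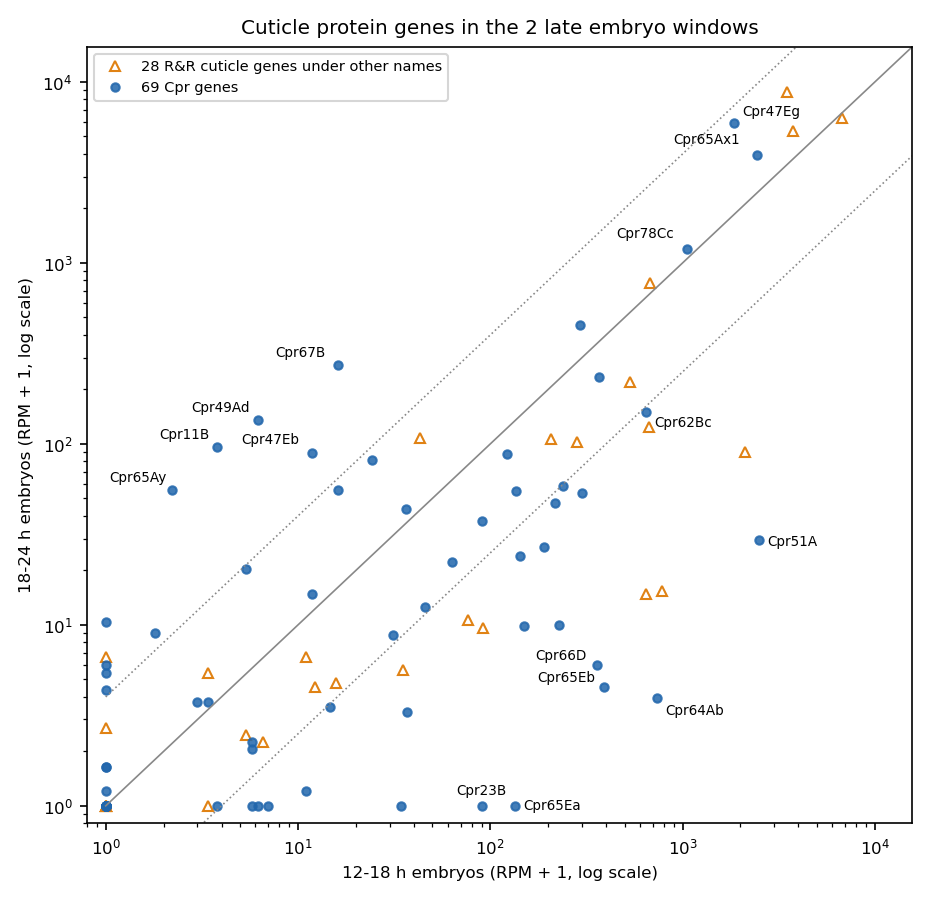
Level at 12-18 h (x axis) against 18-24 h (y axis), both as RPM + 1 on log scales, for the 69 Cpr genes (circles) and 28 R&R cuticle genes under other names (triangles). The solid line marks equal levels and the dotted lines a 4-fold ratio; 17 Cpr genes lie below the lower dotted line with at least 10 RPM at 12-18 h, with Cpr51A and Cpr64Ab farthest to the lower right.

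The R&R genes that carry other names, such as the larval cuticle proteins (Lcp) and the Ccp84A genes, had a like course. At 12-18 h they summed to 20169 RPM and at 18-24 h to 22097 RPM, from 61.4 RPM at 6-12 h. Of 17 that could be called, all 17 were higher at 12-18 h than at 6-12 h, against 17.2% of all genes. Only Lcp65Ag1, Ccp84Ac, and Ccp84Ag had reached 10 RPM at 6-12 h, with 11.1, 12.6, and 15.5 RPM. The others had entered through 12-18 h alone, so that no lower call was possible for them. Between the late windows 7 were lower at 18-24 h and none higher, against 6.22% and 8.39% of all genes. Of these 7, Lcp65Ad, Edg78E, and Ccp84Aa had entered through 12-18 h alone. Among those lower was Ccp84Ag, with 2117 RPM at 12-18 h and 88.9 RPM at 18-24 h. Lcp65Ag3 stood at 3510 RPM and 8832 RPM in these windows, which is under the 4-fold limit. The Lcp65Ag genes are near-identical copies whose reads the counting may have divided, so the split between them is uncertain.

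The genes that make and shape chitin were highest at 12-18 h among the embryo windows when summed, with 5196 RPM against 1185 RPM at 6-12 h and 863 RPM at 18-24 h. The sums of the Cpr genes and of the other R&R genes did not fall in this last step. Of 13 that could be called, 5 were higher at 12-18 h than at 6-12 h, against 17.2% of all genes. In the next step 5 were lower at 18-24 h than at 12-18 h, against 6.22%. Of the 13, only obst-B had entered the first step through 12-18 h alone. Gasp, a chitin-binding protein of the tracheal cuticle, stood at 261 RPM at 6-12 h, 2077 RPM at 12-18 h, and 147.6 RPM at 18-24 h. The chitin deacetylase gene serp stood at 268, 806, and 141.8 RPM. Gasp was called in both steps, and serp only in the second, since its step from 6-12 h was under the 4-fold limit.

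Enzymes of cuticle hardening and pigmentation had low levels in the embryo, with a sum of 510.2 RPM at 12-18 h and 510.0 RPM at 18-24 h. Of 7 that could be called, 6 were higher at 12-18 h than at 6-12 h, against 17.2% of all genes. Among them were ple, tyrosine hydroxylase, and Ddc, dopa decarboxylase. Of the 7, only Dat and Pu had reached 10 RPM at 6-12 h, so that the others could not have been called lower. In the next step 2 of 7, b and e, were lower at 18-24 h than at 12-18 h and none higher, against 6.22% and 8.39% of all genes. Both had entered through 12-18 h alone. Among the ecdysone response genes and regulators, of 10 that could be called 2 were higher and 2 lower at 12-18 h than at 6-12 h. This stands against 17.2% and 7.87% of all genes, so that their share of higher calls was near that of all genes. Of the 10, Eip74EF had entered through 12-18 h alone and Blimp-1 through 6-12 h alone. In the next step 4 of 9 regulators were lower at 18-24 h than at 12-18 h and none higher, against 6.22% and 8.39% of all genes. The 4 were Eip74EF, Hr4, Eip78C, and ftz-f1, of which Eip78C had entered through 12-18 h alone. The nuclear receptor gene ftz-f1, known to time cuticle gene expression in molts, stood at 15.7 RPM at 6-12 h, 553 RPM at 12-18 h, and 37.7 RPM at 18-24 h. Hr4 was lower at 18-24 h than at 12-18 h, with 17.0 against 185.8 RPM, and Blimp-1 was lower at 12-18 h than at 6-12 h, with 3.20 against 173 RPM.

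Reads on Cpr genes were also counted before the embryo makes cuticle. In 0-45 min embryos 932 reads fell on 26 Cpr genes. Of the 69 members 5 reached 10 RPM there, where 43.0% of all genes did. The leading ones were Cpr51A with 187 reads, Cpr78Cc with 115, and Cpr65Ax1 with 114. Of the 24 genes with at least 100 reads at 12-18 h, 20 had reads at 0-45 min, at a median of 0.95% and at most 4.51% of their 12-18 h level, and 861 of the 932 reads fell on them. At 90 min-6 h, 2 of these 24 had reads, 17 reads in all. The 0-45 min window is thus higher than the 90 min-6 h window. Between them, the 45-90 min library had 3 Cpr reads, a share of 0.00708% (0.00146 to 0.0207%), which does not resolve this step. Of these leading genes, ovary had 11 reads of Cpr51A, 4 of Cpr78Cc, and none of Cpr65Ax1. Cpr47Eg had 81 reads at 0-45 min and none in ovary, whereas Cpr66D had 51 at 0-45 min and 195 in ovary. In the same 0-45 min library the other R&R genes summed to 205.9 RPM. The muscle myosin gene Mhc stood at 19.5 RPM there and at 1954 RPM at 12-18 h, and in ovary at 20.3 RPM, and what part these have in the result was not tested.

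Among adult samples the head had the most members in use, with 23 at 10 RPM or more, followed by male carcass with 13 and male whole flies with 11. Female carcass had 10, testis 6, female whole flies 4, and ovary 1. In the same order, 51.0, 50.0, 61.8, 44.4, 56.3, 43.6, and 46.2% of all genes reached that level. In head the leading genes were Cpr100A with 1093 RPM from 10239 reads, Cpr67B with 806 RPM, Cpr62Bc with 671 RPM, Cpr65Au with 664 RPM, and Cpr49Ag with 329.6 RPM. In female carcass they were Cpr49Ab with 662 RPM, Cpr65Au with 468 RPM, Cpr49Ae with 339.6 RPM, Cpr67B with 148.4 RPM, and Cpr92F with 104.8 RPM. In male carcass they were Cpr65Au with 1442 RPM, Cpr67B with 341 RPM, Cpr49Ab with 339.6 RPM, Cpr49Ae with 320.4 RPM, and Cpr47Ef with 247 RPM. Cpr65Au and Cpr67B were among the leading genes of all 3 samples.

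Between female head and female carcass, 25 Cpr genes could be called, of which 16 were higher in head and 1 lower, against 21.5% and 8.28% of all genes. Of the 25, 15 had reached 10 RPM in head alone, 2 in female carcass alone, and 8 in both. Of the 16 genes higher in head, 13 had no read in female carcass, the library with the fewest genes at 1 to 5 reads. In male carcass 4 of these 13 had no read, and the highest of them had 11.7 RPM. With male carcass in place of female carcass, a comparison added after the data were seen, 14 of 27 Cpr genes were higher in head and 5 lower, against 11.9% and 10.1% of all genes. All 14 were among the 16, and the 5 lower were Cpr47Ef, Cpr49Ab, Cpr62Ba, Cpr66D, and Cpr67Fb. Of the 27 genes, 14 had reached 10 RPM in head alone, 4 in male carcass alone, and 9 in both. For genes that entered through a single library, the minimum left little or no room for a call in the other direction. Neuron markers summed to 3254 RPM in head and 97.4 RPM in female carcass, and fat body markers to 6721 and 23346 RPM, and their part in these values was not tested.

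Cpr100A had 10239 reads in head, 0 in female carcass, 85 in male carcass, 0 in female whole flies, and 44 in male whole flies. By the bound from 3 reads it was at least 1628-fold higher in head than in female carcass. In male carcass it stood at 8.67 RPM, against 1093 RPM in head. Cpr49Ag had 3087 reads in head, none in either carcass, and 19 in male whole flies, at least 491-fold higher than in female carcass. Cpr62Bc had 6284 reads in head, 27 in female carcass, and 31 in male carcass, a ratio of 111 against female carcass (76.2 to 169). For each of these genes head stands far above all other adult libraries. Cpr97Ea had 1456 reads in head, 0 in female carcass, and 5 in male carcass, at least 231-fold higher than in female carcass.

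Cpr72Ec, known as a protein of the corneal lens, had 1519 reads in head, none in either carcass, and 112 in male whole flies, which makes it at least 241-fold higher in head than in female carcass. Crys, which encodes the lens protein drosocrystallin and also has the R&R domain, had 618 reads in head, 42 in female carcass, and 14 in male carcass, and its level in head was 66.0 RPM. Cpr66D, also known from the lens, had 60, 67, and 369 reads in these libraries, that is 6.41, 15.0, and 37.6 RPM. The 3 lens genes of the R&R family thus did not share a pattern over these samples.

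Cpr49Ab was the gene called lower in head, with 33 reads there, 2959 in female carcass, and 3331 in male carcass, a 188-fold lower level than in female carcass (134 to 274). It had no read in any embryo library. Cpr65Au was spread over head, female carcass, and male carcass, with 664, 468, and 1442 RPM, and was not called between head and female carcass, at a ratio of 1.42 (1.35 to 1.49). Cpr49Ae, Cpr92F, and Cpr47Ef were likewise not called between head and female carcass. Against male carcass, Cpr47Ef was called lower in head, with 44.3 RPM there and 247 RPM in male carcass.

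**Figure D4:**
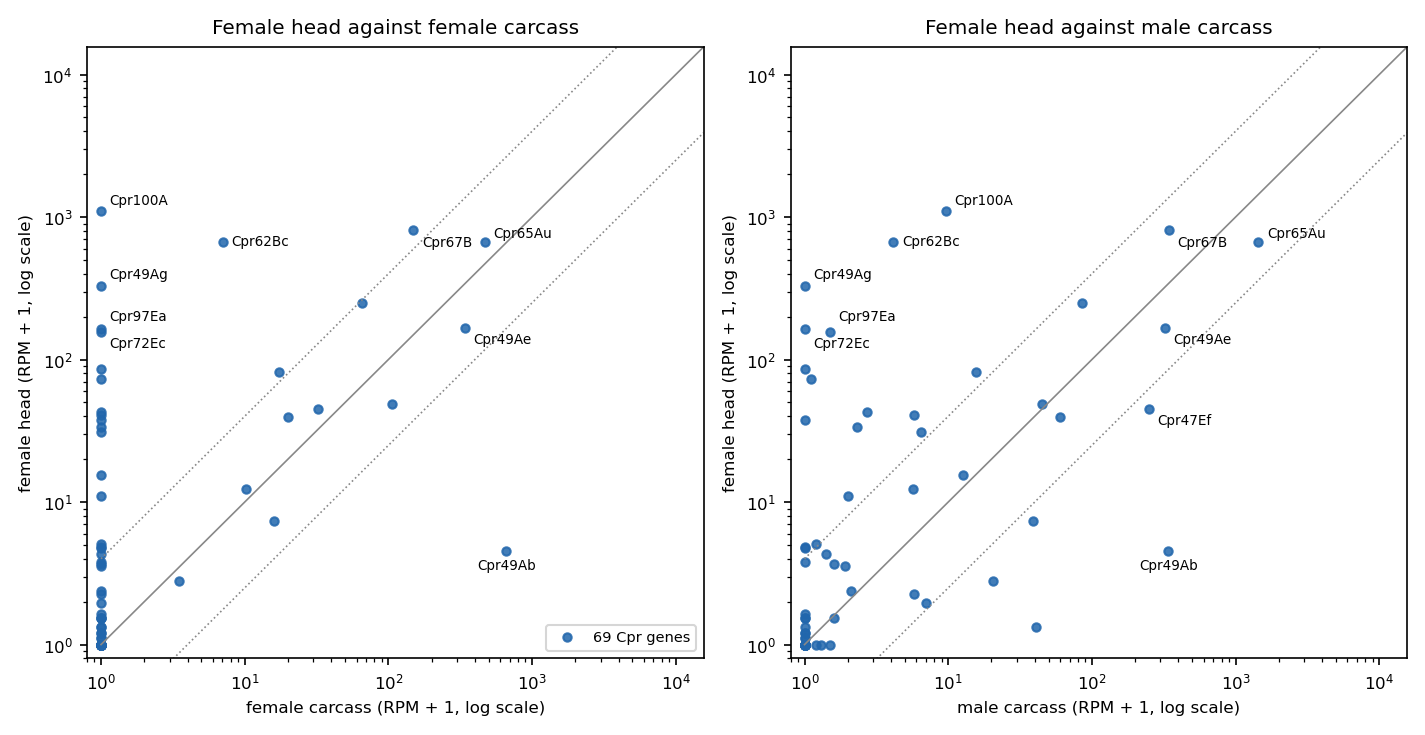
Level in female carcass (left panel, x axis) or male carcass (right panel, x axis) against female head (y axis), as RPM + 1 on log scales, for the 69 Cpr genes. The solid line marks equal levels and the dotted lines a 4-fold ratio. Of the genes above the upper dotted line in the left panel, 13 lie on the left edge, with no read in female carcass, whereas 4 of these have no read in male carcass.

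Other lists of cuticle genes held genes called higher in head than in female carcass, where 21.5% of all genes were higher and 8.28% lower. Among the genes that make and shape chitin, 8 of 12 were higher in head and none lower. Of the 8, kkv, exp, and Cht7 had entered through head alone. Gasp stood at 994 RPM in head, 35.4 RPM in female carcass, and 54.5 RPM in male carcass. In the hardening and pigmentation list 3 of 6 were higher in head, namely Ddc, e, and Pu, and among ecdysone response genes and regulators 7 of 11. Of these 7, Hr4 and Eip78C had entered through head alone. Eip93F, a regulator of adult development, stood at 2388 RPM in head, 409 RPM in female carcass, and 1205 RPM in male carcass. The R&R genes under other names had 5 of 9 higher and 2 lower in head, and all 5 had entered through head alone. The 2 lower were the pupal cuticle gene Pcp and the adult cuticle gene Acp65Aa, with 1.82 and 26.6 RPM in head against 32.2 and 194 RPM in female carcass. Pcp had entered through female carcass alone. In male carcass Pcp had no read and Acp65Aa stood at 10.4 RPM, both below their head level.

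The whole-fly libraries allow a check of head genes, since a whole fly includes its head. In male whole flies the photoreceptor genes ninaE, Rh3, Rh4, Arr1, and Arr2 stood at 5.42 to 14.4% of their head level, with a median of 10.3%. Of the 9 Cpr genes over 100 RPM in head, Cpr72Ec stood at 8.28% (6.82 to 9.97%), inside that range. Cpr100A stood at 0.483% (0.351 to 0.648%), Cpr62Bc at 0.375% (0.232 to 0.574%), Cpr49Ag at 0.692% (0.416 to 1.08%), and Cpr97Ea at 0.694% (0.318 to 1.32%). These 4 lie below every photoreceptor gene. Cpr67B, Cpr62Bb, Cpr49Ae, and Cpr65Au, which were also seen in carcass, stood at 17.6%, 15.7%, 67.1%, and 79.2%. In female whole flies the photoreceptor genes stood at 0.054 to 3.71% of their head level, and Cpr100A had no read, which allows up to 0.166%. The head sample is female and the whole flies compared are labelled male, so that sex and sample cannot be told apart for these 4 genes.

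**Figure D5:**
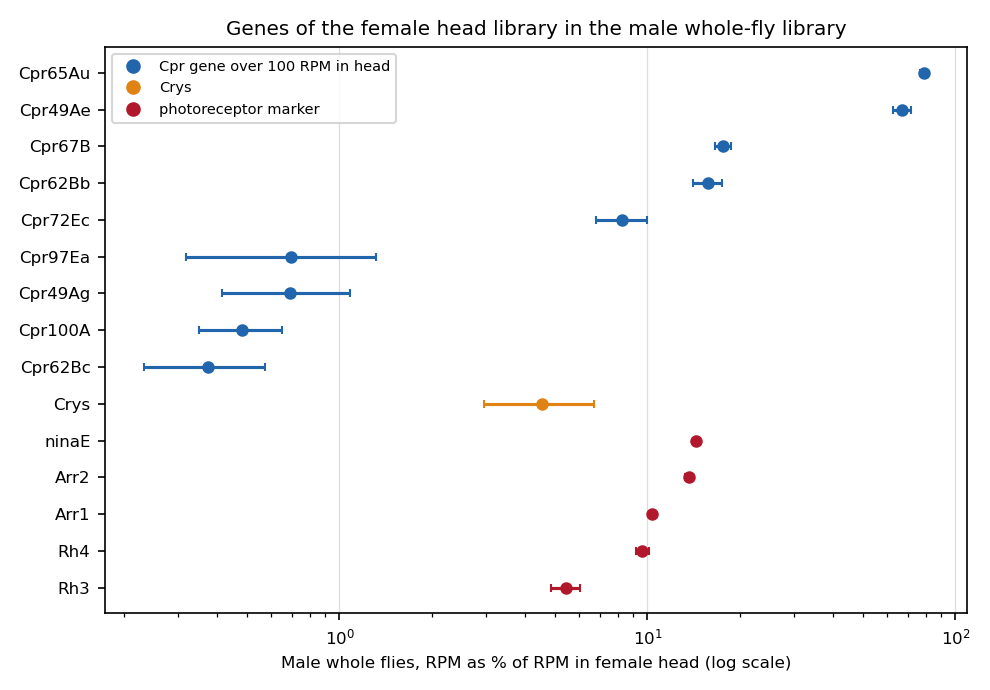
Level in male whole flies as a percent of the level in female head (x axis, log scale) for the 9 Cpr genes over 100 RPM in head, the lens gene Crys, and 5 photoreceptor genes. Points are ratios of single libraries and bars are exact 95% intervals for counting error. Cpr100A, Cpr62Bc, Cpr49Ag, and Cpr97Ea lie below 1%, while the photoreceptor genes lie between 5.42 and 14.4%.

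Between carcasses of males and females, 13 Cpr genes could be called, of which 4 were higher in males and none lower, against 8.05% of all genes higher and 1.59% lower. Of the 13, 10 had reached 10 RPM in both carcasses and 3 in male carcass alone. Female carcass was the library with the fewest genes at 1 to 5 reads, and 2 of the 4 calls rest on no read there. Cpr47Ef had 2427 reads in male and 140 in female carcass, that is 247 and 31.3 RPM, a ratio of 7.89 (6.66 to 9.43). Cpr62Ba had 192 and 11 reads, a ratio of 7.95 (4.34 to 16.2). Cpr67Fb had 390 reads in male carcass and none in female carcass, at least 59.2-fold higher, and Cpr73D had 115 and none, at least 17.5-fold higher. Cpr65Au stood at 3.08 times the female level (2.94 to 3.22), under the limit. Cpr49Ae did not differ beyond counting error, at a ratio of 0.943 (0.887 to 1.00). Other tissues' genes also moved between these libraries. From female to male carcass, 3 accessory gland markers went from 0 to 1720 RPM, 4 neuron markers from 97.4 to 255 RPM, and 3 muscle markers from 1869 to 3877 RPM. In the same order 3 fat body markers went from 23346 to 10594 RPM, 3 yolk protein genes from 278802 to 70.8 RPM, osk from 36.3 to 1.63 RPM, and tj, a marker of ovarian somatic cells, from 38.5 to 0.31 RPM. Their part in these values was not tested.

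In female whole flies the leading members were Cpr49Ab with 96.5 RPM, Cpr65Au with 94.5 RPM, Cpr49Ae with 25.6 RPM, Cpr62Ba with 11.3 RPM, and Cpr67B with 8.37 RPM. In male whole flies they were Cpr65Au with 526 RPM, Cpr67B with 141.8 RPM, Cpr49Ab with 114.6 RPM, Cpr49Ae with 111 RPM, and Cpr47Ef with 80.7 RPM, so that 4 genes were in the lead in both. Male and female whole flies gave 12 Cpr genes that could be called, with 10 higher in males and none lower, against 30.8% of all genes higher and 1.69% lower. Of the 12, 8 had reached 10 RPM in males alone, 1 in females alone, and 3 in both. With 1 RPM added, the largest ratios were for Cpr47Ef, with 673 reads in male and none in female whole flies, at least 54.7-fold higher, Cpr62Bb with 327 and none, Cpr51A with 256 and none, Cpr67Fb with 253 and none, and Cpr67B with 1182 and 17, a ratio of 16.9 (10.5 to 29.2). With library totals in place of TMM factors 6 were higher and 1 lower, which was Cpr62Ba. That gene had 23 reads in female and 24 in male whole flies, so its direction was opposite to that in the carcasses, where it was higher in males. The female library had 1519235 counted reads and the male one 10024870. Cpr47Ef and Cpr67Fb were called higher in males in both pairs. The ovary genes in the library labelled male whole flies are a measured difference from male carcass whose part in these values was not tested. Muscle RNA was also scarce in female whole flies, where Mhc stood at 119 RPM, against 1020.3 RPM in male whole flies and 1233 RPM in female carcass.

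Late embryos and adult carcass differed in their leading genes, and part of the members were in use in both. Of the 10 members at 10 RPM or more in female carcass, 6 (60.0%) reached it in a late embryo window too, and of the 13 in male carcass 7 (53.8%). These are 15.8% and 18.4% of the 38 members in use in late embryos. Shares of all genes for each carcass were not computed. Over head and both carcasses together, 16 members reached it in late embryos too and 11 did not, against 6588 and 1385 of all genes. The part shared with late embryos was thus smaller among the members than among all genes. Of 33 Cpr genes that could be called between 18-24 h embryos and female carcass, 23 were higher in the embryo and 5 lower. This stands against 15.6% and 10.4% of all genes. Of the 33, 23 had reached 10 RPM in the embryo alone, 6 in female carcass alone, and 4 in both. Of 7524 genes in all, these numbers were 1542, 885, and 5097. Cpr47Eg had 28448 reads at 18-24 h, none in female carcass, and 11 in male carcass, and Cpr65Ax1 had 18893 reads and none in either carcass. Cpr78Cc, with 5699 reads, had none in either carcass as well, and Cpr11A had 2168 at 18-24 h, none in female carcass, and 17 in male carcass. Cpr49Ag had 1111 reads at 18-24 h and none in either carcass, but 3087 in head. The 5 genes lower in the embryo were Cpr49Ab, Cpr65Au, Cpr49Ae, Cpr47Ef, and Cpr47Ea, and the first and the second were at least 1053-fold and 744-fold lower at 18-24 h.

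In the ovary only Cpr66D reached 10 RPM, with 195 reads and 17.2 RPM in 3′-seq and 339 reads and 4.52 RPM in RNA-seq, which was 50.5% and 56.1% of all Cpr reads there. In head 23 members reached it by 3′-seq. These 23 were all called higher in head than in ovary, where 26.6% of all genes were higher and 19.5% lower, and since they had entered through head alone, no lower call was possible for them. Cpr66D was not called, with 60 reads in head and a level in head of 0.373 times that in ovary (0.275 to 0.501). By RNA-seq no member reached 10 RPM in ovary and 19 did in head, so that these 19, all called higher in head where 26.3% of all genes were, could not have been called lower. Cpr100A had 10239 and 4 reads in head and ovary by 3′-seq and 7410 and 0 by RNA-seq. Cpr65Au had 6218 and 2 by 3′-seq, a ratio of 3770.5 (1043 to 31141), and 4788 and 1 by RNA-seq. Cpr67B, Cpr62Bc, and Cpr49Ag had 6, 9, and 1 reads in ovary by 3′-seq, against 7550, 6284, and 3087 in head. By RNA-seq Cpr72Ec had 8001 reads in head and 12 in ovary, Cpr97Ea 5205 and 1, and Cpr49Ae 5105 and none.

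In testis 6 Cpr genes reached 10 RPM, led by Cpr51A with 67.0 RPM from 316 reads. Cpr50Ca had 205 reads there and Cpr56F 277, that is 43.5 and 58.7 RPM. Each overlaps another gene on the opposite strand, which were S-Lap7 with 4189 RPM in testis for Cpr50Ca and CkIIbeta2 with 26.7 RPM for Cpr56F. Since the strand setting of the counting is not given in the sources used here, reads of such a pair cannot be told apart. Cpr51A overlaps CG30197 in the same way, with 24.6 RPM of CG30197 in testis and 31.2 RPM at 12-18 h, where Cpr51A stood at 2489.7 RPM. In all, 11 members overlap a gene on the other strand and 3 a gene on the same strand.

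In cultured cells the family was near its lower limit. At most 3 members reached 10 RPM in any line, and none did in mbn2, cmel1, mldmd16_c3, Dmd32, and S2R+. Of all genes, between 40.3% (BG3) and 47.9% (Dmd4) reached that level in the lines. The leading genes were Cpr51A with 76.9 RPM in BG3, Cpr50Ca with 46.1 RPM in OSS and 13.8 RPM in Dmd4, and Cpr49Ac with 29.9 RPM in Dmd20 and 17.8 RPM in gm2. Reads behind them were 51, 246, 100, 105, and 84. CG30197, which overlaps Cpr51A, stood at 153.8 RPM in BG3. Cpr50Ca was thus highest in an ovarian somatic line while ovary had 18 reads of it, and S-Lap7 had no read in OSS. It also overlaps the noncoding gene lncRNA:CR43810 on the same strand, whose level was not analysed here, so that these reads may belong to either. Cpr49Ac reached 10 RPM in no embryo and no adult sample, with 9.99 RPM at 12-18 h as the highest.

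The assays were compared in head, where 30 Cpr genes had at least 1 RPM in both. Pearson's r of their log2 levels was 0.89, across genes, which share libraries and are not independent. The median log2 ratio of 3′-seq to RNA-seq was 1.51 for these 30 genes and 0.16 for 8797 genes. RNA-seq reads increase with transcript length, so that levels of different genes cannot be compared by it. The share of counted reads on Cpr genes in head was 0.326% by 3′-seq and 0.161% by RNA-seq. Cpr100A had 1093 RPM by 3′-seq and 188.5 RPM by RNA-seq, whereas Cpr72Ec had 162 and 203 RPM and was the leading Cpr gene of the RNA-seq library. Cpr76Bd went further in that direction, with 29.9 RPM by 3′-seq and 80.9 RPM by RNA-seq. All 19 genes at 10 RPM by RNA-seq in head reached it by 3′-seq as well, and Cpr11A, Cpr47Ef, Cpr49Aa, and Cpr56F did so by 3′-seq alone.

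The members sit in clusters. They lie on 3L (34 genes), 2R (21), 2L (5), 3R (5), and X (4), and 48 of them form 12 groups with gaps of 20 kb or less between neighbors, in coordinates of the dm6 genome. The largest are the 8 genes of 49A at chr2R:12376626-12415170, the 7 of 47E at chr2R:11251751-11278445, and the 6 of 65A at chr3L:6131242-6158630. Within each of these 3 clusters the genes were highest in different libraries. In 47E, Cpr47Ea and Cpr47Ee were highest in head, Cpr47Eb and Cpr47Eg at 18-24 h, and Cpr47Ef in male carcass. In 49A, Cpr49Ab and Cpr49Ae were highest in female carcass, Cpr49Ad and Cpr49Af at 18-24 h, and Cpr49Aa and Cpr49Ag at 12-18 h. In 65A, Cpr65Au was highest in male carcass and had no read at 18-24 h. Cpr65Av was highest at 12-18 h, and Cpr65Ax1 and Cpr65Ay were highest at 18-24 h.

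Of the 9 other clusters, 5 had genes at 10 RPM that were highest in different libraries, 3 had all such genes highest in 1 library, and 72E had a single gene at that level. The 3 genes of 65E at chr3L:7086003-7093841 and the 3 of 67F at chr3L:10889990-10894693 were all highest at 12-18 h. In 67F, Cpr67Fb was seen in male carcass with 390 reads and its neighbors Cpr67Fa1 and Cpr67Fa2 had none there. Whether counting could divide reads between Cpr67Fa1 and Cpr67Fa2 was not analysed here, so their separate values are uncertain. Cpr97Ea and Cpr97Eb at chr3R:27083130-27091130 were both highest in head. Cpr64Aa and Cpr64Ab lie 1701 bp apart at chr3L:4207838-4216414, and the first had 345 reads in head and none in any embryo, whereas the second had 1837 reads at 12-18 h and none in head. Of 22 adjacent pairs in which both genes reached 10 RPM, 7 were highest in the same library (31.8%), against 312 of 1304 other pairs (23.9%). Cpr65Ax2 had no read beside Cpr65Ax1 with 18893 at 18-24 h, and whether counting could divide reads between these copies was not analysed here.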

How the data were processed

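The authors isolated RNA from tissues, embryos, and cell lines, made 3′-seq libraries from 2 μg by oligo-dT capture and RNA-seq libraries from the same RNA, mapped RNA-seq reads to the dm6 genome with HISAT2, and counted reads on gene models with extended 3′ UTRs with FeatureCounts. The deposited values are raw counts per gene, and the submitters' processing notes also name Trimmomatic 0.36. The 3′-seq mapper and the counting options are not given in the sources used here. Of 44 libraries, 26 of D. melanogaster were used. The 18 of other species hold no gene name that fits the rule.

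Counts were divided by library totals and TMM factors, separately for each table (edgeR 4.0.16, R 4.3.3), with further steps and plots in Python 3.11.15 (pandas 2.3.3, matplotlib 3.10.9, scipy 1.17.1). The TMM scaling and the 4-fold call were tested on a simulated pair of libraries with counting error only, in which abundant genes were changed. This does not cover genes with few reads or the other steps. Totals were 42379 to 15693295 reads for 3′-seq and 23089872 to 66969674 for RNA-seq. With 1 library per condition no test was run, and intervals (exact Poisson and binomial, 95%) cover counting error only, since amplified reads are not independent molecules. All 69 members were found in the annotation.

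Genes named are the 5 with the highest RPM in each late embryo, head, carcass, and whole-fly library, up to 5 called genes with the largest ratio in each direction, the leading gene elsewhere at 10 RPM, genes with no read, and list genes at 10 RPM. Others, such as Cpr66D, Cpr12A, Cpr76Bd, CG30197, and the cluster examples, were chosen after their values were seen. Members and lists were chosen with earlier results of these data known. Of the lists, 13 of 15 chitin genes, 8 of 9 hardening genes, and 13 of 14 regulators were found. In all, 57 other settings cover scaling, filters, limits, thinning, and libraries left out. R&R subclasses were not analysed here.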

Additional observations from a re-analysis of the deposited data

How the results depend on the processing

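No paired analysis was possible because each condition has 1 library. Of 131 values recomputed for the main comparisons, 111 stayed within 1.5 times the reported value or within its interval. At a ratio of 2 in place of 4, the genes higher at 18-24 h than at 12-18 h became 9, those lower in head than in female carcass 4, those higher and lower in male than in female carcass 8 and 1, and 1 each was lower in male than in female whole flies and in head than in ovary. At a minimum of 1 RPM, 10 were higher at 18-24 h and 9 in male carcass. Between whole flies, library totals gave 6 higher and 1 lower, and DESeq2 size factors (DESeq2 1.42.0) 7 higher and 1 lower. With male carcass in place of female carcass, 5 genes were lower in head, an alternative chosen after seeing the data. Without the Cpr gene with the most reads, the share of reads was 1.04% at 12-18 h, 0.634% at 18-24 h, 0.254% in head (0.139% by RNA-seq), 0.0818% in female carcass, 0.105% in male carcass, 0.0194% in female whole flies, and 0.0533% in male whole flies. Other scalings moved the median log2 ratio of all genes by -0.74 to 1.16. Numbers of members over 1 RPM moved by more than 1.5 times in 23 of 68 recomputations. A limit of 5 RPM gave fewer in 16 and thinning to 477958 reads in 2. A limit of 3 counts gave fewer in 2 and more in 3, namely ovary with 22 in place of 6, cmel1 with 19 in place of 10, and S2R+ with 11 in place of 5. Levels of a few RPM are limited by depth, above all in 45-90 min embryos and BG3, and differences between conditions by the single library of each.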
